A study of Mus musculus with 9 samples.

Results

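Cells answer a shortage of oxygen through the hypoxia-inducible factors (HIFs), and 10 genes of this response were followed here through the exit of mouse epiblast-like cells (EpiLCs) towards anterior and posterior fates. The genes were Hif1a, Egln1, Egln3, Bnip3, Pdk1, Vegfa, P4ha1, Ndrg1, Ankrd37 and Adm. They were taken by symbol from a count table of 23453 gene symbols, and all 10 were measured in each of the 9 libraries. When oxygen is plentiful, prolyl hydroxylases of the EGLN family mark the HIF alpha subunits for VHL-dependent degradation. When oxygen is scarce, the alpha subunit is stabilised, pairs with ARNT and binds hypoxia response elements, whose core is most often the letters ACGTG. This switches on genes for glucose use, blood vessel growth and mitochondrial turnover. Many of these genes also answer to other signals, and the level of HIF1A protein is set mainly by degradation, which mRNA counts do not show.

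The 9 libraries were bulk RNA-seq of cells in 3 states, with 3 replicates in each state. EpiLCs, which resemble the early post-implantation epiblast, were made from ESCs by 48 h in N2B27 medium with 1% KSR (a serum replacement), FGF2 and Activin A. Anterior epiblast-like cells (aEpiLCs) were EpiLCs cultured for another 24 h in N2B27 basal medium, to which the methods add KSR but no growth factor, and posterior epiblast-like cells (pEpiLCs) were EpiLCs cultured for another 24 h with Activin and the Wnt/β-catenin agonist CHIR99021. The sources used here call the cells wild-type and give no cell line, batch, date or oxygen level for these libraries, so all 3 states are states of cultured cells although the tissue label reads embryo. Time in culture and medium change together between EpiLCs and the other states and cannot be told apart. Nothing in the labels says that the replicates were separate cultures, so p-values measure the spread between these samples, which may be technical.

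Total counts lay between 20560564 and 23417917 per library, and 3 counts, taken as the detection limit, came to 0.130 to 0.143 CPM (counts scaled to library size). Epiblast markers were present in every library, with Pou5f1 between 789 and 1138 CPM, but the summed level of the 6 markers was 4495 to 4790 CPM in EpiLC, 4121 to 4322 CPM in aEpiLC and 1802 to 3062 CPM in pEpiLC. These markers did not move as a group, since against EpiLC Pou3f1 and Utf1 fell in pEpiLC (-2.64 and -2.60, and -2.22 and -2.19 without pEpiLC replicate 1). Dnmt3b was called lower there too (-1.09), but without pEpiLC replicate 1 it was -0.83 and under the 2-fold limit. Fgf5 lay on that limit (1.0), at 0.93 without EpiLC replicate 2 and 0.95 without pEpiLC replicate 2, where it was not called. Summed markers of extraembryonic endoderm (5 of 8 listed genes analysed) were 7.03 to 8.58 CPM in EpiLC, 7.96 to 8.16 CPM in aEpiLC and 4.35 to 6.58 CPM in pEpiLC, below both other states. Those of feeder fibroblasts (6 of 8 analysed) were 21.8 to 27.2 CPM in EpiLC and aEpiLC, 34.0 CPM in pEpiLC replicate 1 and 16.2 and 17.3 CPM in pEpiLC replicates 2 and 3, with opposite calls inside the list: against EpiLC Dcn fell in both later states (-1.89 in aEpiLC, -4.64 in pEpiLC) and Col1a2 rose in pEpiLC (2.03, and 1.53 without pEpiLC replicate 1). Those of blood and endothelium (6 of 8 analysed) were 18.5 to 23.9 CPM in EpiLC, 18.4 to 19.2 in aEpiLC and 6.30 to 6.99 in pEpiLC, where the endothelial gene Cdh5 had at most 3 counts in any library. The like sums in EpiLC and aEpiLC hid opposite moves, as Pecam1 fell by 2.80 in aEpiLC and Runx1 rose by 1.06, a call lost without EpiLC replicate 1 (0.97) or aEpiLC replicate 3 (0.90), while Tek was at 0.92 (adjusted p = 4.73e-05). In pEpiLC against EpiLC Pecam1 fell by 2.78 and Tek by 1.10, the latter not called without pEpiLC replicate 2 (-0.90). The part of these shifts in the results below was not tested, and in bulk RNA fewer cells of a type and less RNA per cell cannot be told apart. pEpiLC replicate 1 stood apart from its state. It had 1088 CPM of the mesoderm gene T against 204 and 219 CPM in replicates 2 and 3, and 323 and 333 of 15797 genes differed more than 4-fold between it and these, whereas at most 76 genes did so in any other pair of replicates. The calls of the members in pEpiLC are given with and without this library.

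The promoters of the members were searched for the HIF core letters, to show which of these genes carry them close to their start. RefSeq promoters on GRCm38.p6 were matched for 9 of the 10 genes by symbol, and Ndrg1 was not matched. In the 250 bases before a start, ACGTG on either strand was found at 1 or more starts of 7 of the 9 genes. Of all 27025 genes with such a promoter 18.5% held it, and of the 11506 that passed the filter on low counts 24.8% did. One window is shown for each gene where the letters lie outside annotated exons, with ACGTG or its reverse complement CACGT in capitals; where both overlap they read CACGTG.
Bnip3, chr7:138909584-138909639, minus strand, motif 108 bases before the start: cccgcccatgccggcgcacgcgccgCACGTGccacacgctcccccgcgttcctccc
Hif1a, chr12:73907707-73907762, plus strand, motif 135 bases before the start: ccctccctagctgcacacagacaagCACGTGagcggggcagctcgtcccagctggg
Egln3, chr12:54204074-54204124, minus strand, motif 229 bases before the start: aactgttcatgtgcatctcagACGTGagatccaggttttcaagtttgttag
P4ha1, chr10:59323255-59323295, plus strand, motif 16 bases before the start: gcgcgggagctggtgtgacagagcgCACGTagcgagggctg
Ankrd37, chr8:46000062-46000100, minus strand, motif 241 bases before the start: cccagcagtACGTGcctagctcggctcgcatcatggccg
The windows of Bnip3 and Hif1a share the palindrome CACGTG, which reads as the core on both strands. Egln1 also held the letters, Vegfa held them before its second start only, and neither Pdk1 nor Adm held them in these windows. Only ACGTG and its reverse complement were searched, so other forms of the core were not covered. A match of letters is a description of the reference and shows no binding.

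Ordered by level per kilobase of exon, the members spanned a wide range in EpiLC. Bnip3 had 34.1 ± 5.63 CPM per kb (SD, n = 3), Hif1a 26.1 ± 1.39, Pdk1 12.5 ± 1.42 and Vegfa 9.32 ± 0.762, and the libraries of these 4 neighbours did not overlap. Egln3, Egln1 and P4ha1 followed at 5.91 ± 2.14, 5.80 ± 0.551 and 4.42 ± 0.666 CPM per kb, and the libraries of Egln3 overlapped with those of both others. Ankrd37, Ndrg1 and Adm were lowest, at 1.74 ± 0.621, 0.894 ± 0.344 and 0.528 ± 0.414 CPM per kb, and each overlapped with the next. In aEpiLC and pEpiLC Hif1a led the order. In pEpiLC Ndrg1 stood 6th at 5.15 ± 1.39 CPM per kb, after being 9th in EpiLC and 10th in aEpiLC, whereas Vegfa went from 4th in EpiLC to 5th in aEpiLC and 7th in pEpiLC. These ranks are of means and neighbours overlapped. In pEpiLC the libraries of Ndrg1 (3.56 to 6.19 CPM per kb) overlapped with those of Egln3, Vegfa and P4ha1. In aEpiLC those of Vegfa (3.46 to 6.66) overlapped with those of Egln1.

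**Figure D1:**
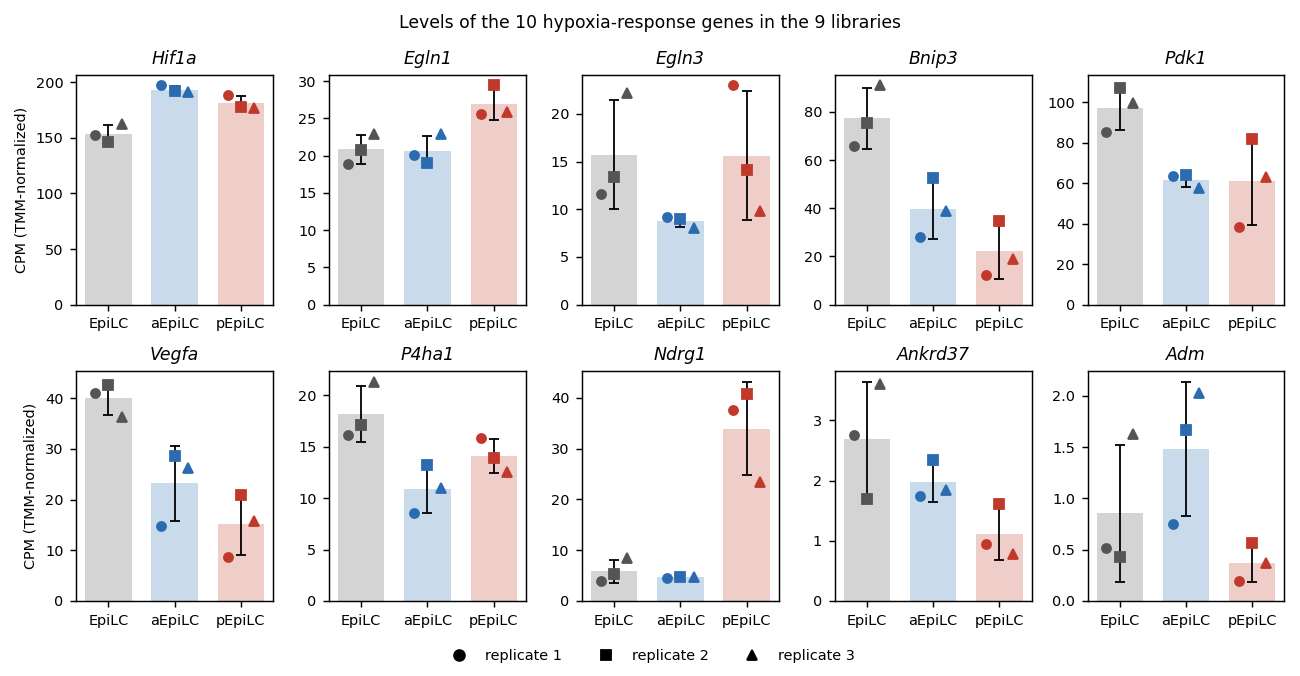
TMM-normalized CPM of each hypoxia-response gene (vertical axis, from 0, own scale per panel) in the 3 states (horizontal axis). Points are libraries, bars are means and error bars are SD of 3 libraries. Bnip3 and Vegfa are highest in all 3 EpiLC libraries, Hif1a is lowest there, and the pEpiLC libraries of Ndrg1, at 23.5 to 40.8 CPM, stand above all others.

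Levels below are TMM-normalized CPM, which allow a gene to be compared between libraries, and fold changes are log2 values with their standard error (SE) from the quasi-likelihood test of edgeR, fitted to the 6 libraries compared. P-values were adjusted by the Benjamini-Hochberg method over all genes tested. A gene was called, and is said to have risen or fallen, at an adjusted p below 0.05 and at least a 2-fold change, that is an absolute log2 fold change of 1. Exact permutation tests of 3 libraries against 3 cannot give a two-sided p under 0.1.

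The first comparison asks which members differed in EpiLCs moved to basal medium. In aEpiLC most members stood lower than in EpiLC, by less than 2-fold. The test called 0 of 10 members, against 7.25% of 15301 genes called higher and 5.24% called lower, and likewise 0 with DESeq2, edgeR's likelihood ratio test and limma voom. With no fold limit, an adjusted p below 0.05 was reached by 5 lower members (Bnip3, Egln3, Vegfa, P4ha1 and Pdk1), where 22.6% of all genes did so, and by 1 higher member (Hif1a), where 24.0% did. The unadjusted p was below 0.05 for the same 6 genes. The median log2 fold change of the members was -0.55, beside 0.0023 over all genes tested, and the libraries of 6 members did not overlap between the states, as for 56.3% of genes.

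The second comparison asks the same of EpiLCs moved to CHIR99021 and Activin. In pEpiLC Bnip3, Vegfa and Ankrd37 fell and Ndrg1 rose. Thus 3 of 10 members were called lower, against 8.13% of 15288 genes, and 1 was called higher, against 7.71%. Without pEpiLC replicate 1 these 4 genes were called again. With no fold limit 3 members were lower (21.4% of all genes) and 3 higher (22.8%), the latter being Ndrg1, Egln1 and Hif1a. The members' median was -0.49, beside 0.017 over all genes, and 8 members had libraries that did not overlap, as did 58.7% of genes. The EpiLC libraries served as controls in both comparisons, so their values are set side by side and the overlap between them is not a result.

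The third comparison sets the posterior against the anterior state directly and so tests the difference between the shifts from EpiLC. Ndrg1 was called higher in pEpiLC, 1 of 10 members against 2.55% of 15198 genes, and Adm was called lower, 1 of 10 against 4.74%. With no fold limit the counts were the same, beside 6.28% higher and 9.30% lower over all genes. The median of the members was -0.051, beside 0.012 over all genes, and the libraries of 6 members did not overlap, where 38.7% of genes did not.

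**Figure D2:**
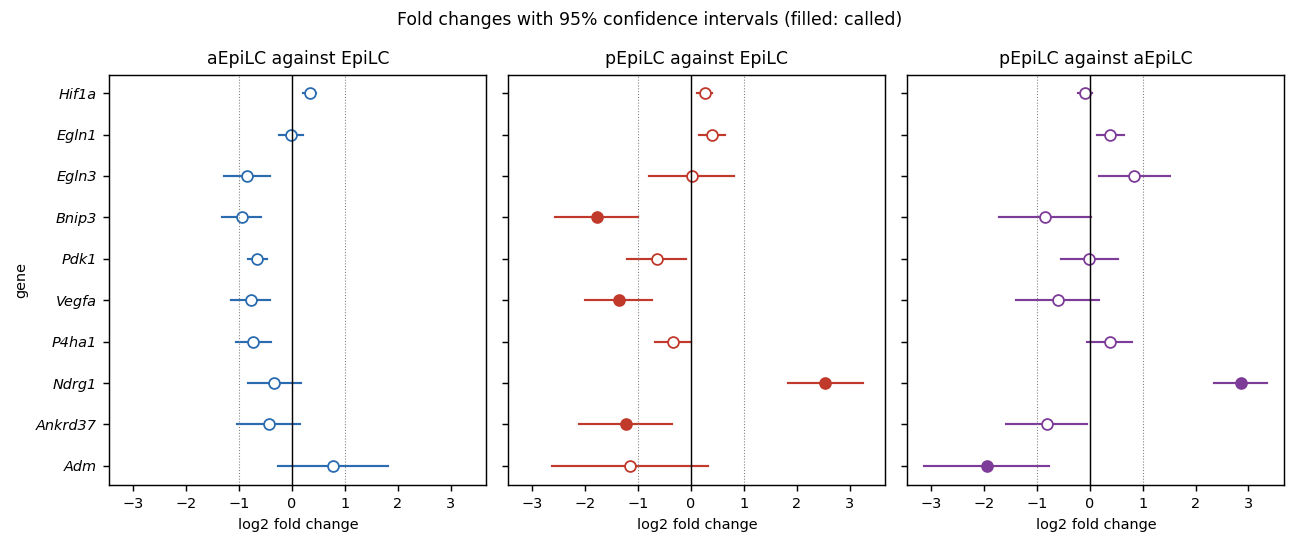
Log2 fold change (horizontal axis) of each member (vertical axis) in the 3 comparisons, with 95% confidence intervals as lines. Filled points are called genes and dotted lines mark a 2-fold change. No point is filled for aEpiLC against EpiLC, 4 are filled for pEpiLC against EpiLC, and Ndrg1 and Adm are filled for pEpiLC against aEpiLC.

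Hif1a encodes the oxygen-regulated alpha subunit of HIF1. It had 153, 146 and 162 CPM in EpiLC replicates 1 to 3, 197, 192 and 191 CPM in the aEpiLC replicates, and 189, 178 and 177 CPM in the pEpiLC replicates. Every aEpiLC and pEpiLC library was above every EpiLC library, and the replicates lay close together. Exons of Hif1a overlap those of the gene models Gm15283 and Gm49321. Against EpiLC the difference was 0.33 ± 0.0594 in aEpiLC (adjusted p = 0.000477) and 0.26 ± 0.0607 in pEpiLC (adjusted p = 0.0112), both far under the fold limit. The pEpiLC libraries were all below the aEpiLC libraries, but by -0.09 with a 95% interval of -0.23 to 0.044 (adjusted p = 0.329).

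Egln1 (PHD2) is the main prolyl hydroxylase that marks HIF alpha subunits and is itself a HIF target. Its EpiLC libraries had 18.9, 20.8 and 22.9 CPM, its aEpiLC libraries 20.1, 19.0 and 22.9 CPM and its pEpiLC libraries 25.6, 29.4 and 25.9 CPM. The pEpiLC libraries were higher than all others, and EpiLC and aEpiLC overlapped. In aEpiLC against EpiLC the difference was -0.012 with a 95% interval of -0.24 to 0.22 (adjusted p = 0.939). In pEpiLC it was 0.39 ± 0.107 (adjusted p = 0.0202), under the fold limit, and the adjusted p reached 0.0674 to 0.0721 without pEpiLC replicate 2, EpiLC replicate 1 or EpiLC replicate 2. Between pEpiLC and aEpiLC it was 0.39 ± 0.109 (adjusted p = 0.0513, over a range of 0.0102 to 0.177 among the alternatives).

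Egln3 (PHD3) is the more strongly hypoxia-inducible member of the same enzyme family. Its levels were 11.6, 13.4 and 22.2 CPM in the EpiLC replicates, 9.20, 9.0 and 8.0 CPM in the aEpiLC replicates and 23, 14.1 and 9.79 CPM in the pEpiLC replicates. All aEpiLC libraries were below all others, whereas EpiLC and pEpiLC each spread widely and overlapped. The difference was -0.85 ± 0.201 in aEpiLC against EpiLC (adjusted p = 0.00358) and 0.012 ± 0.346 in pEpiLC against EpiLC (adjusted p = 0.981). The former was -0.51 without EpiLC replicate 3, was called without EpiLC replicate 1 (-1.03), and had an adjusted p of 0.0539 with all 9 libraries in 1 fit, over a range of 8.04e-05 to 0.0539. The latter was -0.37 without pEpiLC replicate 1, the highest library. Between pEpiLC and aEpiLC it was 0.84 ± 0.287 (adjusted p = 0.0917), and without pEpiLC replicate 3 Egln3 was called at 1.08 (adjusted p = 0.0289, over a range of 0.0220 to 0.235 among the alternatives).

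Bnip3, on chr7:138890836-138909519 of GRCm38, encodes a mitochondrial outer membrane protein that promotes mitophagy, and its promoter carries the palindrome shown above. Its exons overlap the gene model Gm45507 on the opposite strand. EpiLC replicates had 65.7, 75.3 and 91.0 CPM, aEpiLC replicates 27.9, 52.6 and 38.8 CPM and pEpiLC replicates 12.3, 34.9 and 18.9 CPM. Every library of both later states was below every EpiLC library, with pEpiLC replicate 1 the lowest of all 9. Bnip3 fell by 1.79 ± 0.336 in pEpiLC, 3.45-fold (adjusted p = 0.00477), and was called in all 14 alternatives, with -1.49 without pEpiLC replicate 1. In aEpiLC the difference was -0.96 ± 0.172 (adjusted p = 0.000510), just under the fold limit, and it was called without aEpiLC replicate 2 (-1.21) or without EpiLC replicate 1 (-1.06). The pEpiLC and aEpiLC libraries overlapped, at -0.85 with a 95% interval of -1.72 to 0.014 (adjusted p = 0.167), and Bnip3 was called only when pEpiLC replicate 2, the highest, was left out (-1.34, adjusted p = 0.0349, over a range of 0.00927 to 0.429).

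Pdk1, pyruvate dehydrogenase kinase 1, holds pyruvate back from the mitochondrial citric acid cycle. Its levels were 85.0, 107 and 99.6 CPM in EpiLC, 63.2, 63.8 and 57.7 CPM in aEpiLC and 38.3, 81.9 and 63.2 CPM in pEpiLC. The aEpiLC libraries were tight and all below EpiLC; the pEpiLC libraries were also below EpiLC but spread from the lowest to the highest of the later states. The difference from EpiLC was -0.66 ± 0.0827 in aEpiLC (adjusted p = 2.88e-05) and -0.64 ± 0.240 in pEpiLC (adjusted p = 0.0617), which became -0.39 without pEpiLC replicate 1 (adjusted p = 0.00531, over a range of 0.00531 to 0.176). Between pEpiLC and aEpiLC it was -0.0100 with a 95% interval of -0.55 to 0.53, and 0.24 without pEpiLC replicate 1.

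Vegfa, on chr17:46016993-46032369, encodes the main growth factor for blood vessels. EpiLC replicates had 41.0, 42.5 and 36.3 CPM, aEpiLC replicates 14.8, 28.5 and 26.2 CPM and pEpiLC replicates 8.73, 21 and 15.8 CPM. All EpiLC libraries were above all others, and replicate 1 was the lowest library of both later states, as it was for Bnip3. Vegfa fell by 1.37 ± 0.271 in pEpiLC, 2.59-fold (adjusted p = 0.00581), and was called in all 14 alternatives, with -1.09 without pEpiLC replicate 1. In aEpiLC the difference was -0.78 ± 0.171 (adjusted p = 0.00221), which rose to an adjusted p of 0.0566 with all 9 libraries in 1 fit. The pEpiLC and aEpiLC libraries overlapped, at -0.61 with a 95% interval of -1.40 to 0.18.

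P4ha1 encodes a catalytic subunit of the prolyl 4-hydroxylase that modifies collagen. It had 16.1, 17.2 and 21.3 CPM in EpiLC, 8.54, 13.2 and 11 CPM in aEpiLC and 15.8, 13.9 and 12.6 CPM in pEpiLC. Both later states were below EpiLC without overlap and overlapped with each other. The difference from EpiLC was -0.73 ± 0.155 in aEpiLC (adjusted p = 0.00165) and -0.34 ± 0.146 in pEpiLC (adjusted p = 0.0912), and pEpiLC against aEpiLC gave 0.37 with a 95% interval of -0.048 to 0.79.

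Adm encodes adrenomedullin, a secreted vasodilator peptide. Its counts were low, with 9 to 37 counts per library in EpiLC, 16 to 44 in aEpiLC and 4 to 13 in pEpiLC. These came to 0.513, 0.424 and 1.63 CPM in EpiLC, 0.751, 1.66 and 2.02 CPM in aEpiLC and 0.191, 0.565 and 0.368 CPM in pEpiLC. The pEpiLC libraries were below all aEpiLC libraries, while EpiLC, with replicate 3 far above the other two, overlapped with both. Adm fell by 1.96 ± 0.507 in pEpiLC against aEpiLC (adjusted p = 0.0390). The call was lost without pEpiLC replicate 3, aEpiLC replicate 2 or aEpiLC replicate 3 (adjusted p = 0.0983, 0.131 and 0.139, over a range of 0.00262 to 0.139) and held without pEpiLC replicate 1 (-1.64). The shift from EpiLC was 0.78 ± 0.486 in aEpiLC and -1.15 ± 0.636 in pEpiLC (adjusted p = 0.207 and 0.175), and without EpiLC replicate 3 the former was 1.65 and called (adjusted p = 0.0191, over a range of 0.0191 to 0.516) and the latter -0.29 (adjusted p = 0.719, over a range of 0.132 to 0.719).

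Ndrg1, on chr15:66929318-66969640, encodes a cytoplasmic protein of the N-myc downstream-regulated family that is used as a marker of hypoxia and of differentiation. It had 3.96, 5.33 and 8.39 CPM in EpiLC, 4.6, 4.68 and 4.78 CPM in aEpiLC and 37.5, 40.8 and 23.5 CPM in pEpiLC. The lowest pEpiLC library was above the highest library of the other states, which overlapped. Ndrg1 rose by 2.54 ± 0.307 in pEpiLC against EpiLC, 5.83-fold (adjusted p = 0.000823), and by 2.86 ± 0.216 against aEpiLC, 7.24-fold (adjusted p = 0.000334). It was called in all 14 alternatives of both comparisons, between 2.33 and 2.89 in the first and 2.71 and 3.06 in the second. In aEpiLC against EpiLC the difference was -0.33 with a 95% interval of -0.83 to 0.16 (adjusted p = 0.254). Exons of Ndrg1 overlap those of 2 minor gene models on the opposite strand, and whether the counting used strand is not given in the sources used here.

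Ankrd37 encodes a small ankyrin repeat protein known as a direct HIF target. It had 36 to 82 counts per library in EpiLC, 37 to 52 in aEpiLC and 17 to 37 in pEpiLC, and its exons overlap those of Ufsp2 and Lrp2bp on the opposite strand. Its levels were 2.75, 1.70 and 3.60 CPM in EpiLC, 1.74, 2.34 and 1.84 CPM in aEpiLC and 0.954, 1.61 and 0.781 CPM in pEpiLC. The pEpiLC libraries were below all others by a narrow margin. Ankrd37 fell by 1.24 ± 0.381 in pEpiLC against EpiLC (adjusted p = 0.0319). The call was lost without pEpiLC replicate 3, EpiLC replicate 1 or EpiLC replicate 3 (adjusted p = 0.0922, 0.0862 and 0.123, over a range of 0.00914 to 0.123). The difference was -0.44 ± 0.281 in aEpiLC against EpiLC (adjusted p = 0.212) and -0.82 ± 0.330 in pEpiLC against aEpiLC (adjusted p = 0.139).

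The members varied among replicates to very different degrees. The coefficient of variation of Hif1a was 5.33%, 1.68% and 3.57% in EpiLC, aEpiLC and pEpiLC, and that of Egln1 9.51%, 9.55% and 7.90%. Bnip3 varied by 16.5%, 31.1% and 52.7% in the same states and Vegfa by 8.18%, 31.6% and 40.6%. Bnip3 and Vegfa shared their lowest library (replicate 1) and their highest (replicate 2) in both aEpiLC and pEpiLC. The replicates also differed over the whole group of genes. EpiLC replicate 3 was the highest of its state for 8 of 10 members, aEpiLC replicate 1 the lowest of its state for 6, and pEpiLC replicate 2 the highest of its state for 7. The mean log2 deviation of the members from their state was 0.33 in EpiLC replicate 3 and in pEpiLC replicate 2 and -0.23 in aEpiLC replicate 1, beside -0.0040, -0.0078 and 0.013 over all genes. Normalization keeps the means over all genes near 0, so they do not show how far a list of 10 genes would vary. In EpiLC replicate 3 the largest deviation was that of Adm (1.08), on 37 counts. In pEpiLC replicate 1, the library with the high T level, Vegfa, Bnip3, Pdk1, Adm and Egln1 were the lowest of their state and Egln3, P4ha1 and Hif1a the highest.

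**Figure D3:**
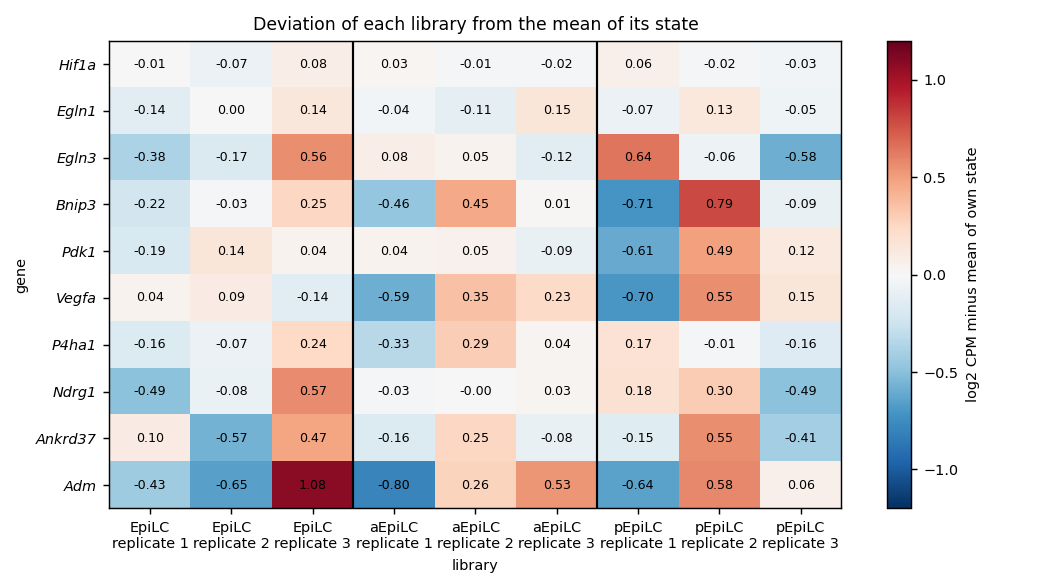
Log2 CPM of each member (vertical axis) in each library (horizontal axis) minus the mean of the library's own state, as colour and number. EpiLC replicate 3 and pEpiLC replicate 2 are mostly above 0, and pEpiLC replicate 1 is low for Bnip3 (-0.71), Vegfa (-0.70), Adm (-0.64) and Pdk1 (-0.61) and high for Egln3 (0.64).

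Around the members, the genes that sense oxygen or form HIF showed 1 call in each comparison with EpiLC. That is 1 of 10 called lower, beside 5.24% of all genes in aEpiLC and 8.13% in pEpiLC, a count too small to set the list apart. The called gene, Epas1, which encodes the alpha subunit HIF2A, fell by 2.56 ± 0.264 in aEpiLC (adjusted p = 4.76e-06) and by 2.75 ± 0.371 in pEpiLC (adjusted p = 0.00126). Its levels were 4.85, 5.23 and 7.65 CPM in EpiLC, 1.31, 0.945 and 0.736 CPM in aEpiLC and 1.38, 0.565 and 0.643 CPM in pEpiLC, so both later states lay below EpiLC without overlap. Below the fold limit, the dimerisation partner Arnt was lower in both (-0.36 in aEpiLC and -0.27 in pEpiLC, adjusted p = 0.000360 and 0.00676) and its relative Arnt2 higher in both (0.87 and 0.84, adjusted p = 0.000132 and 0.00265). Cited2, a feedback inhibitor of HIF, was higher in aEpiLC by 0.66 (adjusted p = 0.000133), and so was Hif3a by 0.49 (adjusted p = 0.00215), but with all 9 libraries in 1 fit the adjusted p was 0.225 and 0.0733. In pEpiLC Cited2 had 82.3 CPM in replicate 1 and 24.0 and 25.1 CPM in replicates 2 and 3, against 19.7 to 20.2 CPM in EpiLC. Its difference from EpiLC was 1.15 ± 0.454 (adjusted p = 0.0736) and 0.32 without pEpiLC replicate 1 (adjusted p = 0.00711, over a range of 0.00711 to 0.176). For VHL, which recognises hydroxylated HIF, the Vhl mRNA differed by -0.10 in aEpiLC (95% interval -0.30 to 0.10) and -0.089 in pEpiLC against EpiLC. In pEpiLC against aEpiLC edgeR called 0 of the 10 genes, with 0 at an unadjusted p under 0.05 and 0 called by DESeq2, the likelihood ratio test or limma voom. The median of the list was -0.063 in aEpiLC and 0.10 in pEpiLC against EpiLC, where Cited2 was called higher in 4 of 14 alternatives, namely without pEpiLC replicate 2 or 3 (1.45 and 1.43), with the likelihood ratio test (1.15) and with all 9 libraries in 1 fit (1.13).

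Among 19 genes of glucose uptake and glycolysis that are known HIF targets, the larger number stood lower in both later states. In aEpiLC 17 were lower than in EpiLC, 14 of them with an adjusted p below 0.05, beside 22.6% of all genes. The calls were split between 2 higher and 2 lower, beside 7.25% and 5.24% of all genes, and the median was -0.50. The glucose transporter Slc2a1 (GLUT1) had 220, 216 and 283 CPM in EpiLC, 1439, 1389 and 1458 CPM in aEpiLC and 104, 191 and 152 CPM in pEpiLC. It rose by 2.58 ± 0.0920 in aEpiLC against EpiLC (adjusted p = 6.92e-10), fell by 3.26 ± 0.202 in pEpiLC against aEpiLC (adjusted p = 0.000150), and stood at -0.66 in pEpiLC against EpiLC (adjusted p = 0.0344), under the fold limit. Slc2a1 was the only gene of the list called in pEpiLC against aEpiLC, 1 of 19 lower beside 4.74% of all genes. The median of the list there was -0.060. The transporter Slc2a3 (GLUT3) rose by 1.41 in aEpiLC, while the glycolytic enzymes Aldoa and Pfkp fell by 1.25 and 1.02. The call of Pfkp was lost without aEpiLC replicate 1, aEpiLC replicate 3 or EpiLC replicate 3 and with limma voom, each of which left 1 gene called lower. In pEpiLC against EpiLC 14 of 19 genes again had an adjusted p below 0.05 and a lower level, beside 21.4% of all genes, the median was -0.56, and 3 were called lower, beside 8.13%: Pfkp (-1.37), Aldoc (-1.16) and Aldoa (-1.1).

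Of 31 other HIF targets, 30 were tested against EpiLC and 2 were called lower in each comparison, a share near that of all genes (5.24% in aEpiLC and 8.13% in pEpiLC). In aEpiLC 16 were lower and 4 higher at an adjusted p below 0.05, beside 22.6% and 24.0% of all genes, with a median of -0.28. In pEpiLC 12 were lower and 2 higher, beside 21.4% and 22.8%, with a median of -0.30. Car9 (carbonic anhydrase 9) fell by 1.99 in aEpiLC and 1.88 in pEpiLC, but on 17 to 22 counts per library in EpiLC and 2 to 10 in the later states. Its call in pEpiLC was lost without EpiLC replicate 1 or EpiLC replicate 3. Mxi1, an antagonist of MYC, fell by 1.18 in aEpiLC, and Stc2 (stanniocalcin 2) fell by 1.09 in pEpiLC, a call made in 7 of 14 alternatives and lost when pEpiLC replicate 1 was left out (-0.73). In pEpiLC against EpiLC 4 genes were called lower without pEpiLC replicate 2, 1 without pEpiLC replicate 3, EpiLC replicate 1 or EpiLC replicate 2, and 0 without EpiLC replicate 3. In pEpiLC against aEpiLC edgeR called 0 of 29 genes, with 4 higher and 3 lower at an unadjusted p under 0.05 and 0 called by DESeq2, the likelihood ratio test or limma voom.

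Relatives and receptors of the members, a list of 23 genes, moved in a mixed way, and 19 were tested against EpiLC and 20 between the later states. In aEpiLC 2 were called higher, beside 7.25% of all genes, and in pEpiLC 3 higher and 1 lower, beside 7.71% and 8.13%. Between the later states 2 were called higher and 2 lower, beside 2.55% and 4.74%. Of the receptors for VEGF, Flt1 had 3.78, 2.59 and 1.93 CPM in EpiLC, at least 13.6 CPM in each aEpiLC library and at least 11.1 CPM in each pEpiLC library, and it rose by 2.48 in aEpiLC and 2.17 in pEpiLC. The co-receptor Nrp2 had 0.793, 1.27 and 1.41 CPM in EpiLC, 3.14, 2.61 and 1.89 CPM in aEpiLC and 19.8, 9.91 and 10.4 CPM in pEpiLC. It rose by 3.54 in pEpiLC against EpiLC and 2.39 against aEpiLC, and by 1.13 in aEpiLC against EpiLC, where the call was lost without aEpiLC replicate 1 or EpiLC replicate 1. Ndrg3, a relative of Ndrg1, had 15.7, 17.1 and 17.9 CPM in EpiLC, 14.2, 14.8 and 11.1 CPM in aEpiLC and 59.1, 50.4 and 52.0 CPM in pEpiLC, which lay well above both other states. It rose by 1.70 in pEpiLC against EpiLC and 2.01 against aEpiLC (adjusted p = 4.93e-05 and 0.000172). Ramp3, a partner of the adrenomedullin receptor, fell by 1.49 and 1.56 in the same comparisons, and Pdk4, a relative of Pdk1, fell by 1.86 in pEpiLC against aEpiLC. Of these 2 calls against aEpiLC, 0 were left without aEpiLC replicate 1 or 2 and 1 without aEpiLC replicate 3. The median of the list was 0.12 in aEpiLC and -0.17 in pEpiLC against EpiLC, and -0.089 between the later states.

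**Figure D4:**
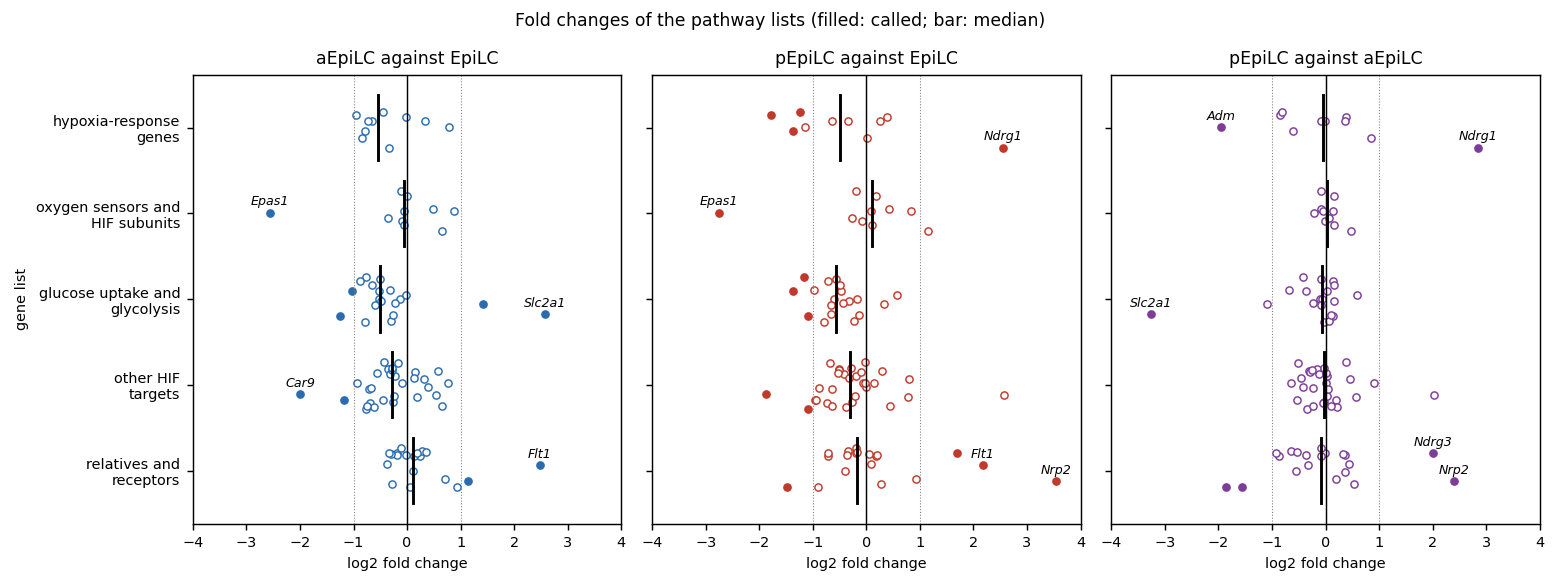
Log2 fold change (horizontal axis) of each tested gene in the members and the 4 pathway lists (vertical axis) in the 3 comparisons. Filled points are called, black bars are medians and dotted lines mark a 2-fold change, and called genes that moved furthest are named. The bars of the glucose list lie at -0.50 and -0.56 against EpiLC while Slc2a1 stands apart at 2.58 in aEpiLC.

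The genes whose profile was most like that of a called member were found by Pearson's r of log2 CPM over the 9 libraries, among 10729 genes with a mean of at least 5 CPM, or 10730 for Ankrd37 and Adm. The 9 points share the 3 states, so r describes likeness and is given without a p. For Vegfa the closest were Mthfd2 (r = 0.991), Trib3 (0.990) and Tars (0.990), and 88 genes had r above 0.95. For Bnip3 they were Gmnn (0.993), Ciart (0.979) and A930007A09Rik (0.978), and for Ndrg1 Washc1 (0.984), Mpc1 (0.983) and Slc25a10 (0.978). For Ankrd37 and Adm no gene passed 0.95, the closest being Ptpa (0.940) and Ttl (0.923). Likeness by r leaves out the size of a change. Mean CPM in EpiLC, aEpiLC and pEpiLC was 67.0, 62.8 and 58.2 for Gmnn, beside 77.3, 39.8 and 22.0 for Bnip3. For Washc1 it was 31.0, 30.6 and 36.5, beside 5.89, 4.69 and 33.9 for Ndrg1. Trib3 moved more, at 95.1, 41.0 and 23.1, beside 39.9, 23.2 and 15.2 for Vegfa.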

How the data were processed

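Bulk RNA-seq of 9 mouse libraries was used (EpiLC, aEpiLC and pEpiLC, 3 each, by title). The authors deposited RSEM expected counts per gene symbol, without normalization; the submitters' processing notes name STAR 2.7.9a, RSEM 1.3.1 and GRCm38. Annotation, read cleaning and strandedness are not given in the sources used here. Expected counts were rounded. Positions and exon lengths came from GENCODE vM21 on GRCm38, where 22803 of 23453 symbols (97.2%) matched a single gene, and promoters from RefSeq.

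The 6 libraries of each comparison were filtered with filterByExpr, scaled by TMM and tested by quasi-likelihood in edgeR 4.0.16 under R 4.3.3, with limma 3.58.1 and DESeq2 1.42.0 for alternatives. Calls needed a log2 fold change of 1 in size and a p below 0.05 after Benjamini-Hochberg adjustment. SEs came from each fold change and F statistic. CPM used TMM factors over 9 libraries. Depth was 20560564 to 23417917 counts per library. The procedure was tested on simulated data with planted changes beyond the fold limit in genes above 5 CPM. That test does not cover genes at low counts or differences near the limit.

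The members and lists were chosen with earlier results of these data known, and 1 gene of the list of other HIF targets is not reported here. Named genes are the 10 members, HIF pathway genes called in a comparison (at most the 4 largest per list and comparison) or on the oxygen sensor list, the 3 genes most like each called member, and T. Cell type markers named came from marker lists and were picked after their values were seen. Other settings tried were DESeq2, limma voom with quality weights, the likelihood ratio test of edgeR, RLE size factors, no filter, at least 10 counts in every library, all 9 libraries in 1 fit, the replicate number as a block, no fold limit, and leaving out each replicate.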

Additional observations from a re-analysis of the deposited data

Results flagged for a closer look

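The shifts from EpiLC had opposite signs in aEpiLC and pEpiLC for 6 of the genes called between these states, where the direct comparison tests the difference. The signs are those of the estimates, and for Ndrg1 and Ramp3 in aEpiLC, Pdk4 in pEpiLC and Adm in both states the 95% interval of the shift held 0, so that no sign was established there. Ndrg1 differed by 2.86 (adjusted p = 0.000334 by edgeR), from shifts of -0.33 and 2.54. Ndrg3 differed by 2.01 (adjusted p = 0.000172), from -0.34 and 1.70. Slc2a1 differed by -3.26 (adjusted p = 0.000150), from 2.58 and -0.66. Adm differed by -1.96 (adjusted p = 0.0390), from 0.78 and -1.15, neither of which was called, and was lost without pEpiLC replicate 3 or aEpiLC replicate 2 or 3 (adjusted p up to 0.139). Without EpiLC replicate 3 its shifts were 1.65, which was called, and -0.29. Pdk4 differed by -1.86 (adjusted p = 0.0124), from 0.93 and -0.91, and was lost without aEpiLC replicate 1 or 2. Ramp3 differed by -1.56 (adjusted p = 0.0207), from 0.048 and -1.49, a call that each of the aEpiLC replicates was needed for. With 3 libraries per state no library was tested as an outlier.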

How the results depend on the processing

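The counts of members called kept to within 1.5 times under the other normalization, tests, filters and sample sets, apart from the values given here; leaving out a replicate in turn is given as a range. With no fold limit the members called in aEpiLC against EpiLC were 1 higher and 5 lower, and in pEpiLC against EpiLC 3 higher. With at least 10 counts in every library Adm was not tested and 0 members were called lower in pEpiLC against aEpiLC. Leaving out each replicate gave 0 to 1 higher and 0 to 2 lower in aEpiLC against EpiLC, and 1 to 2 higher and 0 to 2 lower in pEpiLC against aEpiLC. The members' median in pEpiLC against aEpiLC ranged from -0.17 to 0.063 and has no stable sign. Differences near 0 changed sign: Egln3 in pEpiLC against EpiLC was -0.28 with voom, -0.0014 with at least 10 counts, -0.011 with all 9 libraries, and -0.37 to 0.35 on leaving out replicates; Pdk1 in pEpiLC against aEpiLC was 0.17 with voom and -0.27 to 0.24 on leaving out replicates; in aEpiLC against EpiLC, leaving out replicates gave -0.088 to 0.058 for Egln1 and -0.55 to 0.013 for Ndrg1. The cause was not tested.

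Over 9 pairs of same-numbered libraries the deviations had r between -0.060 and 0.17, with 2 above 0.1. Between aEpiLC and pEpiLC r was 0.17, 0.12 and 0.062 for replicates 1 to 3, and -0.14 to 0.058 for unlike numbers. A weak pairing of these 2 states is therefore possible, and the main fits did not pair the samples. With a replicate block, Egln3 in pEpiLC against EpiLC was -0.0089, Ankrd37 there was -1.23 and no longer called (adjusted p = 0.0761), and 2 members were called lower; the other member counts were those without the block. Low counts limit the precision for Adm, Car9, Pdk4, Ankrd37 and Epas1, among others. Pdk4 had 8 to 16 counts per library in pEpiLC and 35 to 47 in aEpiLC, and Epas1 had 13 to 29 in these states.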
